A study of Mus musculus with 16 samples.

Results

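Skeletal muscle fibre genes were followed through bulk RNA sequencing of mouse lumbosacral dorsal root ganglia. The set consists of 5 genes of slow fibres (Myh7, Tnnc1, Tnni1, Tnnt1 and Myl2) and 5 genes of fast fibres (Myh4, Myh1, Tnnc2, Tnni2 and Tnnt3), which were taken by symbol from a table of 55357 genes and were all found once. The 10 genes were chosen by their measured levels and treatment differences in these same libraries. Their levels and contrasts are therefore given as a description. No p-value is printed for a member, and counts of members called at an adjusted p are given with nothing read from them.

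All animals were wild-type (WT) C57BL6/J mice, whose age is not given in the sources used here. Males and females received either saline or VEGFA, and each of the 4 groups gave 4 libraries, each of the 16 from 1 animal. The bladder received 100 µL of saline on days 1, 5 and 9, which in the VEGFA animals held 6.41 nM VEGF165, a form of vascular endothelial growth factor A. On day 16 the L1, L2, L6, S1 and S2 ganglia were taken, and 300 ng of RNA from each animal went into poly(A) library preparation. Libraries 1 to 4 belong to batch 1 and libraries 5 to 8 to batch 2 in the labels, with 2 libraries of each group in each batch, and they are named here by treatment, sex and number.

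The contractile unit of skeletal muscle, the sarcomere, is built from myosin thick filaments and actin thin filaments. Troponin on the thin filament holds a calcium-binding subunit (troponin C), an inhibitory subunit (troponin I) and a subunit that binds tropomyosin (troponin T). Slow, oxidative and fast, glycolytic fibres use different genes for these proteins. Several slow fibre genes are also used by the heart. A dorsal root ganglion contains sensory neurons and glia and no muscle fibres of its own, while the back muscles lie next to the vertebral canal. Which tissue the muscle reads came from was not tested.

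Counted reads per library came to 25.16 to 32.8 M (mega) in batch 1 and to 32.83 to 41.2 M in batch 2. Values are counts per M reads (CPM), and differences are on the scale of log2(CPM + 0.5), which understates changes of low genes. The 11 sensory ganglion genes, such as the neuronal genes Prph and Calca, summed to 3278 to 7083 CPM and were present in every library. Xist lay at 18.56 CPM or above in all females and at 0.3688 CPM or below in all males. Ddx3y lay at 5.878 CPM or above in all males and was listed at 0 in all females, so each library matched its labelled sex.

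Promoter sequence was looked at because several members moved together. The 250 bases before the RefSeq start were found for 8 of the 10 members in the RefSeq table (build GRCm38.p6, older than the mm39 coordinates of the deposited table); Tnni2 and Tnnt3 had no entry. The windows of both fast myosin genes, neighbours on chromosome 11, and of the slow myosin gene Myh7 are shown 5′ to 3′, at chr11:67237562-67237811 for Myh4 (plus strand), chr11:67199852-67200101 for Myh1 (plus strand) and chr14:54994550-54994799 for Myh7 (minus strand). Capitals mark runs of at least 10 bases that Myh4 and Myh1 share.
Myh4: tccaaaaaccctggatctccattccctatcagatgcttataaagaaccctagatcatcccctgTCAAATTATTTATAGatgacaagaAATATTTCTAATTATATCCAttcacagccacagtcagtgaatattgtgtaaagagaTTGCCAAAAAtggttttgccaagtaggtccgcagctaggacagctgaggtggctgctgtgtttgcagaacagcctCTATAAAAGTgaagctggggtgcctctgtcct
Myh1: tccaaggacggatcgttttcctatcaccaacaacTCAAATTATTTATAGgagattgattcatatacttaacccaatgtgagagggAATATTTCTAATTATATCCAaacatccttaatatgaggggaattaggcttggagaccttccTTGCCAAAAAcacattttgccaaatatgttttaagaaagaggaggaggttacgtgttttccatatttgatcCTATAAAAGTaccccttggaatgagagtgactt
Myh7: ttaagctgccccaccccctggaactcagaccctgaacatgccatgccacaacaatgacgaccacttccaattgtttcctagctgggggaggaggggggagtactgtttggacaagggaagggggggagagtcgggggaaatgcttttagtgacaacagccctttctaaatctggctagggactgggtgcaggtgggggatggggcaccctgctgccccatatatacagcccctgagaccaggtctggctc
Myh4 and Myh1 shared 4 such runs with 55 bases in all, the longest of 20 bases and the last holding the letters TATAAA, whereas Myh7 shared 0 with Myh4. The letters TATAAA, searched on both strands, occurred 3 times in the Myh4 window, 2 times in Myh1 and 0 times in the Myh7 window shown. They also occurred 1 time in the window of slow Tnnt1 and 1 time in 1 window of slow Myl2. In the windows of slow Tnnc1 and Tnni1 and of fast Tnnc2 they occurred 0 times. They occurred in 12.4% of all 32851 promoter windows of the same length. A MEF2 motif was found in Myh4 and Myh1 and in 2.92% of all windows, and a CArG box in Myh4 and in 1.47% of all windows. TATAAA can lie inside a MEF2 motif, so these matches overlap. CANNTG (E-box) occurred in 66.2% of all windows. A match describes letters only.

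Together the 10 genes took 0.07648% (Saline female 8) to 1.477% (VEGFA female 2) of all reads in a library. The fast genes made up most of this, since the slow genes held 0.4331% (VEGFA male 5) to 12.1% (VEGFA female 6) of the members' summed CPM. Slow genes were highest in VEGFA females as a group and lowest in Saline female 7 and Saline female 8, while Saline female 3 stood with the VEGFA females. In bulk samples, fewer muscle cells and less RNA per cell cannot be told apart.

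Myh7 codes for the slow myosin heavy chain, the motor of type I fibres and of the heart ventricle (chromosome 14, 55208141 to 55232084, mm39). It stood at 15.6, 4.11, 27.9 and 23.4 CPM in saline males 3, 4, 7 and 8 and at 8.72, 10.8, 3.88 and 1.96 CPM in VEGFA males 1, 2, 5 and 6. In saline females 3, 4, 7 and 8 it stood at 71.9, 1.01, 0.701 and 0.444 CPM, and in VEGFA females 1, 2, 5 and 6 at 48.1, 211, 50.6 and 60.9 CPM. All VEGFA females lay above every male and above 3 of the 4 saline females, and Saline female 3 overlapped them. Myh7 had the highest of all 18283 female differences between VEGFA and saline, at 4.50 (SE 0.98, 4 libraries in each group). Batch 1 alone gave 3.28 and batch 2 alone 5.72. In males the difference was -1.37 (SE 0.98), with 0.24 in batch 1 and -2.99 in batch 2, so that its direction was not the same in the batches. It was -2.18 without Saline male 4 and -0.85 without Saline male 7.

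Myl2 codes for the regulatory light chain of slow and ventricular myosin (chromosome 5, 122239014 to 122251536). It read 96, 16.5, 81.3 and 61.1 CPM in saline males 3, 4, 7 and 8 and 24.2, 95.7, 5.58 and 5.84 CPM in VEGFA males 1, 2, 5 and 6. It read 261, 13.5, 6.72 and 0.721 CPM in saline females 3, 4, 7 and 8 and 106.5, 366.5, 79.4 and 128.2 CPM in VEGFA females 1, 2, 5 and 6. Both sexes overlapped here, since Saline male 3, Saline male 7 and VEGFA male 2 lay above VEGFA female 5. The female difference was 3.40 (SE 1.01), the second highest after Myh7, and the male difference -1.62 (SE 1.01).

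Tnnc1 codes for the calcium sensor of slow and cardiac troponin (chromosome 14, 30930269 to 30933687). Its levels were 21.9, 11.2, 33.6 and 22.7 CPM in saline males 3, 4, 7 and 8 and 7.75, 22.8, 4.88 and 1.65 CPM in VEGFA males 1, 2, 5 and 6. In females they were 126, 6.16, 1.38 and 1.66 CPM in the saline animals 3, 4, 7 and 8 and 62.1, 148.9, 48.1 and 68.4 CPM in the VEGFA animals 1, 2, 5 and 6. The pattern was that of Myh7, with Saline female 3 among the highest. The differences were 3.29 (SE 0.847) in females and -1.64 (SE 0.847) in males.

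Tnni1, the slow inhibitory subunit (chromosome 1, 135707172 to 135738728), stood at 16.4, 8.48, 24.9 and 15.8 CPM in saline males 3, 4, 7 and 8 and at 5.81, 13.1, 3.69 and 2.44 CPM in VEGFA males 1, 2, 5 and 6. In saline females 3, 4, 7 and 8 it stood at 90.7, 6.95, 2.08 and 1.498 CPM, and in VEGFA females 1, 2, 5 and 6 at 37.9, 118.9, 32.5 and 50.2 CPM. The male groups overlapped through VEGFA male 2. The differences were 2.77 (SE 0.752) in females and -1.47 (SE 0.752) in males.

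Tnnt1, the slow tropomyosin-binding subunit (chromosome 7, 4507569 to 4519382), read 52.2, 15, 60.4 and 49.1 CPM in saline males 3, 4, 7 and 8 and 22.95, 54.3, 5.49 and 5.11 CPM in VEGFA males 1, 2, 5 and 6. Saline females 3, 4, 7 and 8 had 249.8, 10.2, 2.75 and 2.33 CPM, and VEGFA females 1, 2, 5 and 6 had 92.3, 268.4, 75.3 and 114.3 CPM. Saline female 3 again lay among the VEGFA females. The differences were 3.28 (SE 0.915) in females and -1.46 (SE 0.915) in males.

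Among VEGFA animals, every female library lay above every male library for Myh7, Tnnc1, Tnni1 and Tnnt1, but not for Myl2 or any fast gene. Of all 18283 genes tested, 1.59% had this order. The female minus male difference within VEGFA animals was 3.03 (Myl2) to 3.70 (Myh7) on the log2 scale for the slow genes, with SE from 0.752 to 1.01. Within saline animals it was -2.17 (Myh7) to -1.04 (Tnni1), and it was above 0 for all 5 slow genes in batch 1 (0.28 to 1.08) and below 0 for all 5 in batch 2 (-4.62 to -3.17). The summed adipocyte genes of VEGFA females (457.6 to 1429 CPM) also lay wholly above those of VEGFA males (106.7 to 363.3 CPM), and the summed sensory ganglion genes of VEGFA females (3278 to 5845 CPM) lay wholly below those of VEGFA males (6009 to 6241 CPM). The 1.59% refers to single genes with females above males, and no such share was computed for list sums or for the opposite order. The part of either list in the order of the slow genes was not tested.

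**Figure D1:**
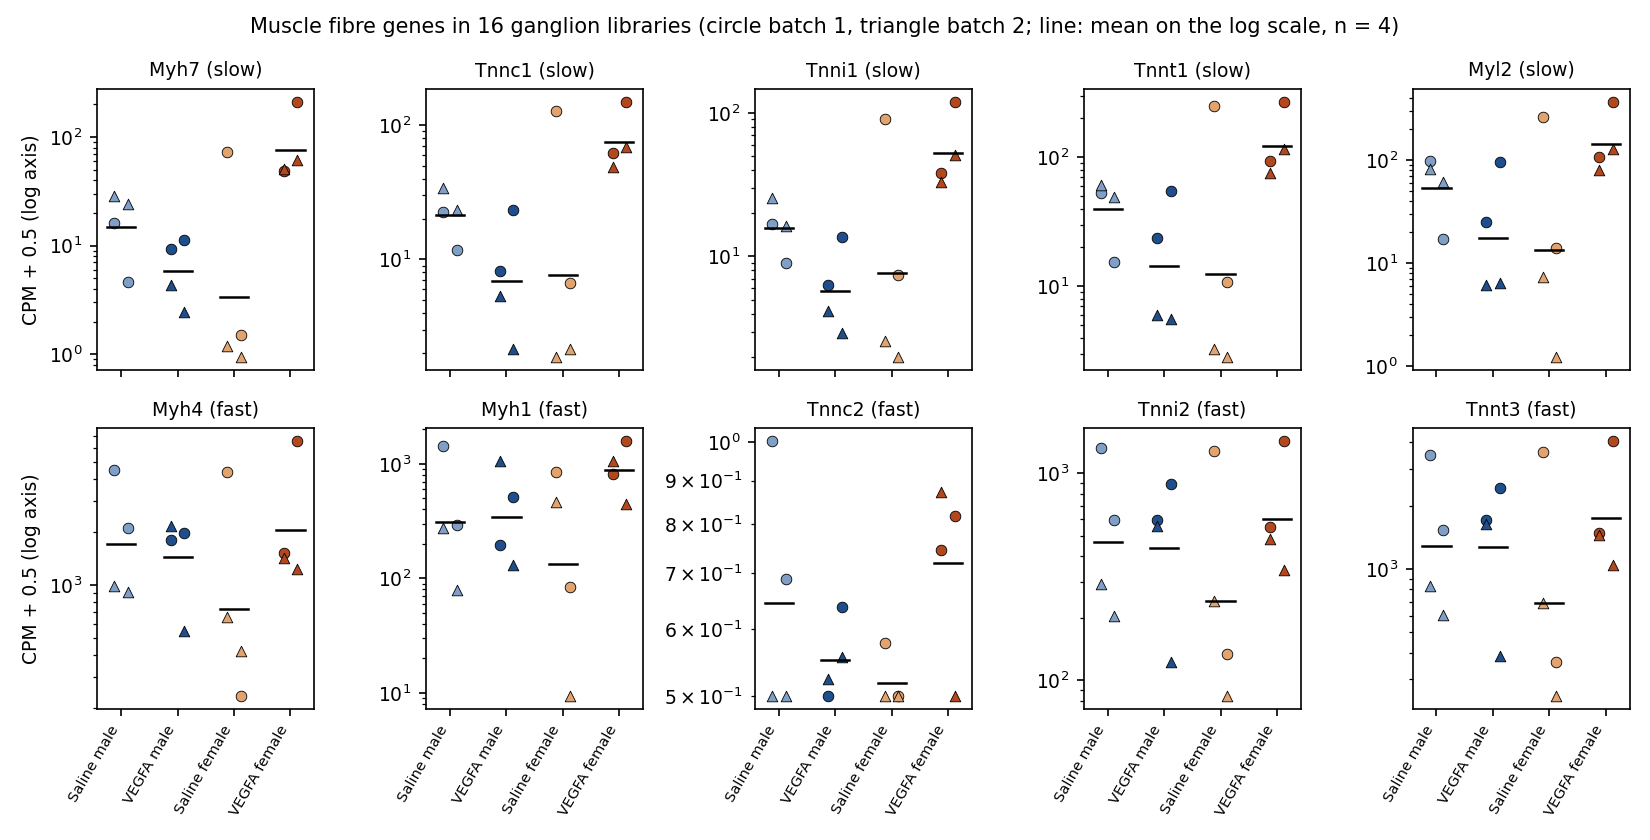
Level of each of the 10 genes (CPM + 0.5, log axis) in the 16 libraries by group, with circles for batch 1, triangles for batch 2 and a line at the mean of log values (n = 4). The slow genes in the upper row lie low in 3 saline females and high in Saline female 3 and the VEGFA females, and Tnnc2 stays at or below 0.503 CPM.

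Myh4 codes for the IIb heavy chain of the fastest fibres (chromosome 11, 67128855 to 67151273) and had the highest mean CPM of the members. It stood at 4507, 2091, 989 and 907 CPM in saline males 3, 4, 7 and 8 and at 1808, 1963, 2149 and 548 CPM in VEGFA males 1, 2, 5 and 6. In saline females 3, 4, 7 and 8 it stood at 4351, 232.6, 657 and 418 CPM and in VEGFA females 1, 2, 5 and 6 at 1507, 6575, 1428 and 1236 CPM. The male groups overlapped in part, with Saline male 3 above every VEGFA male and VEGFA male 6 below every saline male, and the female groups overlapped through Saline female 3. The differences were 1.49 (SE 0.655) in females and -0.25 (SE 0.655) in males.

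Myh1 codes for the IIx heavy chain (chromosome 11, 67090878 to 67115402), beside Myh4 in the myosin cluster. It read 1433, 294.8, 272.5 and 78.1 CPM in saline males 3, 4, 7 and 8 and 195.6, 517, 1061 and 130.6 CPM in VEGFA males 1, 2, 5 and 6. It read 854, 83.02, 459.7 and 8.87 CPM in saline females 3, 4, 7 and 8 and 816, 1588, 1052 and 446 CPM in VEGFA females 1, 2, 5 and 6. Saline female 8 stood apart from all other libraries at the low end. The differences were 2.74 (SE 1.03) in females and 0.16 (SE 1.03) in males, where batch 1 gave -1.03 and batch 2 gave 1.35.

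Tnni2, the fast inhibitory subunit (chromosome 7, 141995545 to 141998148), ranged from 204 to 1332 CPM in saline males and from 121.9 to 884 CPM in VEGFA males. It ranged from 83.6 to 1281 CPM in saline females and from 341.5 to 1436 CPM in VEGFA females. Tnnt3, the fast tropomyosin-binding subunit on the same chromosome (142052573 to 142069747), ranged from 603 to 3481 CPM in saline males and from 386 to 2418 CPM in VEGFA males. As for Myh4, Saline male 3, Saline female 3 and VEGFA female 2 were the highest libraries of their groups for both genes. In saline females Tnnt3 ranged from 248 to 3605 CPM and in VEGFA females from 1043 to 4059 CPM. The female differences were 1.30 for Tnni2 and 1.34 for Tnnt3 (SE 0.576 each), and the male differences were -0.10 and -0.01. Without Saline female 4 the female differences were 0.72 for Tnni2, 0.75 for Tnnt3 and 0.68 for Myh4, and without Saline female 8 that of Myh1 was 1.56.

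Tnnc2, the fast troponin C gene (chromosome 2, 164619081 to 164621888), was nearly absent from the table. It was listed at 0 in Saline male 7 and 8, VEGFA male 1, Saline female 4, 7 and 8 and VEGFA female 6, and its highest level was 0.503 CPM in Saline male 3. It did not pass the filter on low values, so 9 of the 10 members were tested. Fast fibres use the products of Tnnc2, Tnni2 and Tnnt3 together, and the mean levels per kilobase of transcript were 0.1718 CPM for Tnnc2, 743 CPM for Tnni2 and 1480 CPM for Tnnt3. In the coordinates of the deposited table, 1663 of the 2808 bases of Tnnc2 (59.2%) lay within the span of Ube2c, a cell cycle gene at 12.4 CPM on average. Whether that overlap or the counting touched the Tnnc2 values was not tested.

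Other members overlapped genes as well. Tnnc1 lay wholly inside the span of Nisch (275 to 414 CPM), and Tnnt3 shared 46.2% of its span with Prr33, which correlated with the fast genes (r = 0.90 over 16 libraries). Myl2 shared 43.4% with Ccdc63 (at most 0.998 CPM), and Myh1 shared 54.3% with the noncoding gene Myhas (at most 2.86 CPM). In all, 4 members overlapped a protein-coding gene that had reads, and whether counting used the strand is not given in the sources used here. Myosin transcripts share sequence, so that reads can fit more than 1 gene. Of the 150-base transcript windows of Myh7, 0 were identical in Myh1, Myh2 or Myh4 and 5.43% in the heart gene Myh6, and 2.06% of those of Myh1 were shared with Myh2. Myh6 lay above Myh7 in Saline female 4, 7 and 8 (1.40, 2.99 and 1.05 CPM) and in VEGFA male 6 (3.75 CPM).

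Per kilobase of transcript, which allows levels of different genes to be compared, the mean levels over 16 libraries ran from 1480 CPM for Tnnt3 to 743 for Tnni2, 326 for Myh4, 95.5 for Myh1 and 94.8 for Myl2. They went on with 63.7 for Tnnt1, 51.1 for Tnnc1, 23.4 for Tnni1 and 5.42 for Myh7. Tnni2 and Tnnt3 exceeded their slow partners in every library, since Tnni1 reached at most 9.82% of Tnni2 and Tnnt1 at most 11.2% of Tnnt3 per kilobase. The range of each gene over the libraries overlapped that of its neighbour in this order.

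Adult fibres are typed by 4 heavy chains, slow Myh7, intermediate IIa Myh2, Myh1 and Myh4, and the reads of these genes were compared within each library, which removes the total amount of muscle RNA. Myh7 took 1.791%, 2.324%, 1.761% and 3.115% of myosin reads in VEGFA females 1, 2, 5 and 6. It took 1.258%, 0.2674%, 0.05187% and 0.103% in saline females 3, 4, 7 and 8. The female groups did not overlap in this share, but Myh7 was chosen with its female difference known, so nothing is read from this order. They did overlap for Myh7 against Myh1 per kilobase, with Saline female 3 at 8.22% and VEGFA females at 4.69% to 13.3%. In saline males 3, 4, 7 and 8 Myh7 took 0.2273%, 0.1652%, 1.846% and 2.106% of myosin reads. In VEGFA males 1, 2, 5 and 6 it took 0.4114%, 0.3771%, 0.1166% and 0.2703%. The saline males divided by batch, with both batch 1 libraries below VEGFA males 1 and 2 and both batch 2 libraries above all VEGFA males. The 95% Wilson intervals, which cover counting error only, were narrow beside these gaps (1.684% to 1.841% for VEGFA female 5 and 0.0354% to 0.07599% for Saline female 7).

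**Figure D2:**
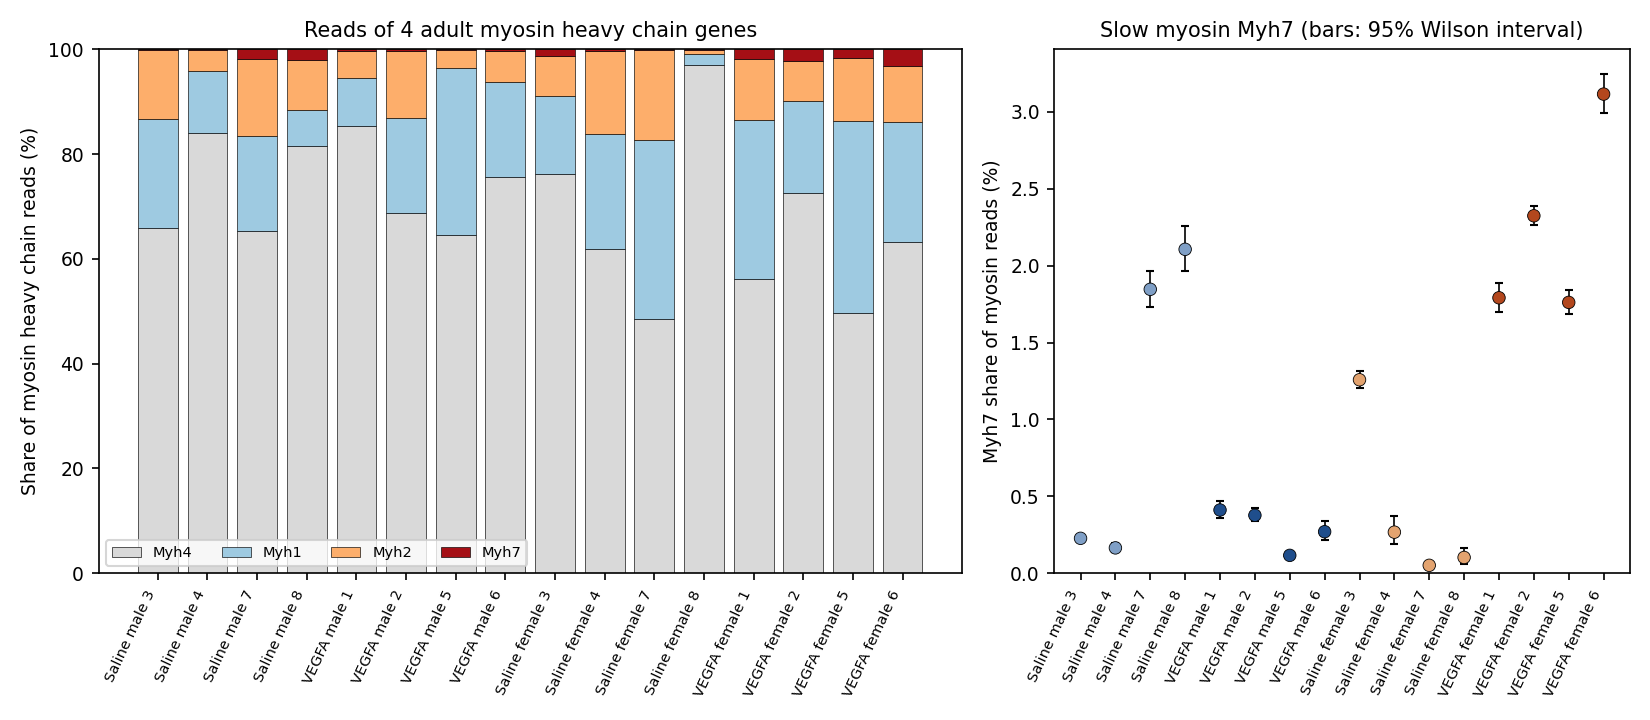
Left, share of reads (%) of Myh4, Myh1, Myh2 and Myh7 among these 4 genes in each library. Right, the Myh7 share alone with 95% Wilson intervals, between 1.761% and 3.115% in VEGFA females and at most 1.258% in saline females.

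Myh4 held the most reads of the 4 heavy chain genes in every library, from 48.6% in Saline female 7 to 96.97% in Saline female 8. Saline female 8 had almost no other heavy chain, with 2.061% Myh1 and 0.863% Myh2. Against Myh4 per kilobase, Myh7 stood at 3.08% to 4.76% in VEGFA females and at 2.73% or below in the other 12 libraries. As for the share of myosin reads, Myh7 was chosen with its female difference known, so nothing is read from this order. Myh7 against Myh1 gave another order, with 29.3% in Saline male 8 and 4.69% to 13.3% in VEGFA females. Tnni1 against Tnni2 (4.51% to 9.82% in VEGFA females, 4.73% in Saline female 3) and Tnnt1 against Tnnt3 (5.30% to 11.2%, and 7.06%) overlapped through Saline female 3 and through Saline male 7 and 8, which stood at 5.69% and 5.16% for Tnni1 and at 7.40% and 8.29% for Tnnt1. Myl2 against the fast light chain gene Mylpf was 30% in Saline male 7 and 29.6% in Saline male 8, inside the VEGFA female range of 14% to 34.1%.

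As a mean of log2(CPM + 0.5), the 5 slow genes stood at 6.45 (SD 0.853, n = 4) in VEGFA females and 3.00 (SD 2.87) in saline females, while saline males had 4.67 (SD 0.875) and VEGFA males 3.16 (SD 1.35). The 4 fast genes other than Tnnc2 stood at 10.19 (SD 0.881), 8.48 (SD 1.93), 9.55 (SD 1.25) and 9.50 (SD 1.10) in the same groups. The slow mean differed between treatments by 3.45 (SE 1.09) in females and -1.51 (SE 1.09) in males. The fast mean differed by 1.72 (SE 0.826) in females and -0.05 (SE 0.826) in males. In males the slow difference was 0.04 in batch 1 and -3.07 in batch 2, and in females it was 1.94 and 4.95. Slow minus fast, with Tnnc2 left out, differed by 1.73 (SE 0.937) in females and -1.46 (SE 0.937) in males, and with Tnnc2 included by 1.98 (SE 0.93) and -1.43 (SE 0.93). Without Tnnc2 this measure ran from -4.21 to -3.07 in VEGFA females and reached -3.86 in Saline female 3, so that the female groups overlapped.

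**Figure D3:**
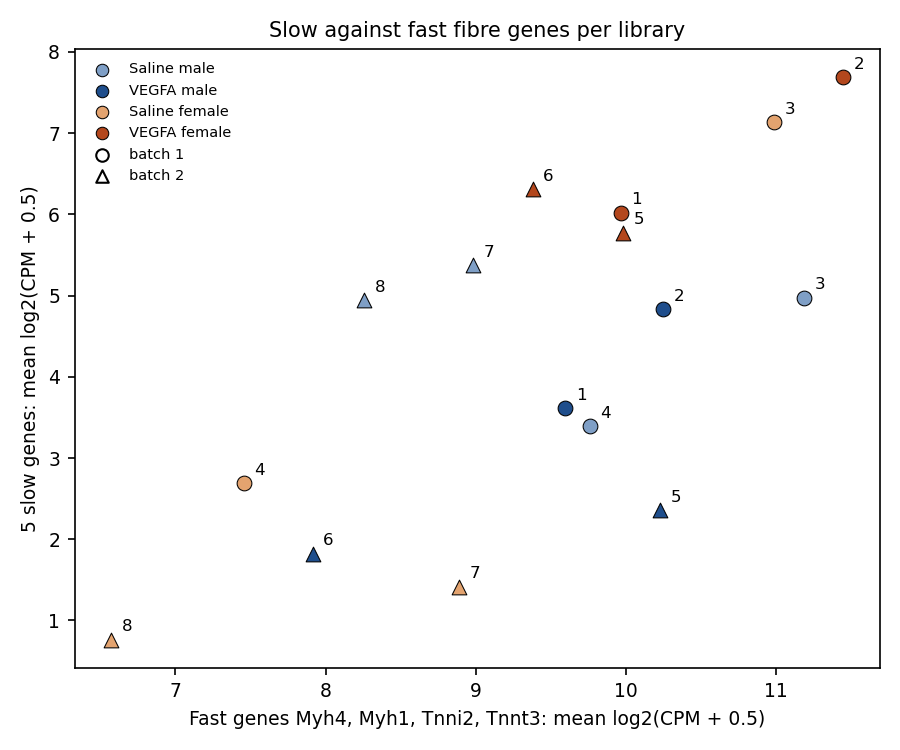
Mean log2(CPM + 0.5) of the 5 slow genes against that of Myh4, Myh1, Tnni2 and Tnnt3, 1 point per library with its number, coloured by group and shaped by batch. The libraries with the most fast RNA (VEGFA female 2, Saline male 3 and Saline female 3) lie apart on the slow axis, with Saline male 3 at 4.98 and the other two at 7.69 and 7.13.

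Across the 16 libraries, log values of the slow genes correlated with each other at r = 0.927 to 0.990 (10 pairs), and those of the 4 fast genes at 0.764 to 0.998 (6 pairs). Between a slow and a fast gene r was 0.579 to 0.732 (20 pairs). The libraries and their depths are shared by all pairs, and batch and group differences enter each r, which is given without a p. A pair of libraries with similar fast RNA, picked as an example, held very different slow RNA. VEGFA male 5 and VEGFA female 5 had fast means of 10.23 and 9.98 and slow means of 2.36 and 5.78.

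In the comparison of VEGFA with saline, 0 of the 9 tested members were called at an adjusted p of 0.05 in males or females by limma, where 0% of all 18283 genes were called. The count was also 0 with the sexes combined and for the difference between the sexes in treatment effect (0% of genes called in each), in saline females against males (0.0492% called) and in VEGFA females against males (0.0438% called). edgeR called 0 members in each of the 6 comparisons, with 0% of genes called in the 4 treatment comparisons and 0.0438% and 0.0383% between the sexes in saline and VEGFA animals. DESeq2 called 0 members as well, with 0.00547% of genes called in males, in females and for the female minus male difference, 0.0219% over both sexes, and 0.109% and 0.148% between the sexes. Fitted to the recovered reads by edgeR, the Myh7 difference was 3.00 in females and -2.24 in males. At an unadjusted p under 0.05 limma counted 1007 genes in males, 1735 in females, 1164 with the sexes combined and 1497 for the female minus male difference. It counted 947 genes between the sexes in saline and 2020 in VEGFA animals. The female minus male difference was highest of all genes for Myh7 (5.87, SE 1.39) and ran from 4.25 (Tnni1) to 5.03 (Myl2) for the other slow genes. It ran from 1.35 (Tnnt3) to 2.58 (Myh1) for the 4 fast genes.

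Single batches and 1 library changed these counts. In batch 1 alone 0 members were called in males (0% of genes called), in females (0.0384%), for the female minus male difference (5.1%), in saline females against males (0.0219%) and in VEGFA females against males (4.9%). In batch 2 alone, with 2 libraries per group, the called members were Myh7, Tnnc1, Tnni1 and Tnnt1 in males (0.082% of genes called) and all 5 slow genes in females (0.0328%). The 5 slow genes were also called for the female minus male difference (0.0437%), and 4 members each in saline females against males (0.0492%) and VEGFA females against males (0.0984%). Without Saline female 3, 4 members were called in females and 4 for the female minus male difference (0.0274% of genes in each), and 3 in VEGFA females against males (0.0712%). The Myh7 difference in females was then 5.92. Since the members were chosen with these contrasts known, nothing is read from the counts.

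**Figure D4:**
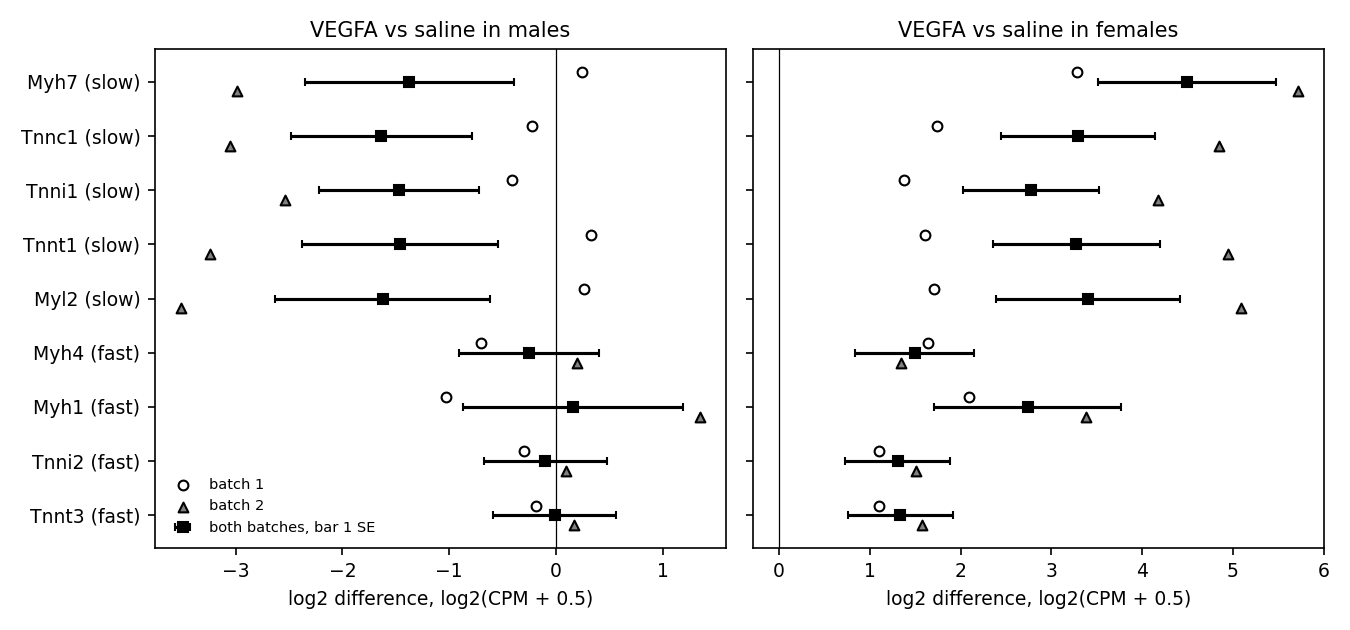
Differences between VEGFA and saline on the scale of log2(CPM + 0.5) for the 9 tested members in males (left) and females (right); squares with bars of 1 SE use both batches, circles batch 1 alone and triangles batch 2 alone. In females all points lie above 0, and in males the slow genes lie between -0.41 and 0.33 in batch 1 and between -3.51 and -2.54 in batch 2.

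Further genes of the sarcomere and of muscle metabolism were given in lists, chosen with earlier results of these data known. Of 6 other slow fibre genes, 6 lay above 0 in females (median 1.62) and 6 below 0 in males (median -0.99), and 0 were called. The slow light chain Myl3 differed by 3.29 (SE 0.979) in females and -1.51 in males, and Myoz2, a calcineurin-binding protein of slow Z-discs, by 2.18 (SE 0.768) and -1.22. The stretch-responsive Ankrd2 (1.57, SE 0.582, and -1.11) and the muscle LIM protein gene Csrp3 (1.67, SE 0.837, and -0.79) had the same directions. Beside these stand medians of -0.01 for all 18283 genes in females and in males.

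Of 11 other fast fibre genes, 11 lay above 0 in females (median 1.47) and 10 below 0 in males (median -0.19), with 0 called. The calcium pump gene Atp2a1 differed by 1.89 (SE 0.688) in females and -0.36 in males, the Z-disc gene Actn3 by 1.61 (SE 0.596) and -0.46, and the fast light chain Mylpf by 1.33 (SE 0.577) and -0.12. Pvalb, a calcium buffer of fast fibres that sensory neurons also make, differed by 0.85 (SE 0.446) and 0.19. Of 20 genes used by both fibre types, 20 lay above 0 in females (median 1.96) and 20 below 0 in males (median -0.50), with 0 called. The actin gene Acta1 differed by 1.56 (SE 0.602) in females and -0.50 in males, the creatine kinase gene Ckm by 1.48 (SE 0.589) and -0.41, the intermediate filament gene Des by 1.69 (SE 0.62) and -0.52, and the giant spring Ttn by 2.21 (SE 0.761) and -0.90.

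The genes most like the slow mean over the 16 libraries, by Pearson r of log2(CPM + 0.5), were Myl3 (0.946), Sln (0.914), Myoz2 (0.899), Tpm3 (0.889), Tnnt2 (0.879), Actn2 (0.853), Fzd9 (0.850), Idh2 (0.843), Ankrd2 (0.837) and Alpk3 (0.83). Those most like the fast mean (here of all 5 fast genes, Tnnc2 included) were Rpl3l (0.993), Eno3 (0.992), Adssl1, Casq1, Tmod4 and Pygm (0.989 each), Hrc and Trdn (0.986 each), Pgam2 (0.985) and Myl1 (0.984). The genes picked as most like the fast mean thus had a higher r with it than those picked for the slow mean. This does not describe the members themselves. Of all tested genes, 5% had an r above 0.445 with the slow mean and above 0.460 with the fast mean.

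Slow minus fast, here with all 5 fast genes, was matched best by Tpm3 (r = 0.833), which codes for the slow muscle tropomyosin and is also used outside muscle, at 115 to 166 CPM in saline males, 97.3 to 156 in VEGFA males, up to 295 in saline females and 172 to 293 in VEGFA females. Next came Tpm3-rs7 (0.767), whose sequence resembles Tpm3 so that shared reads are possible, Sln (0.762), Igkv12-41 (0.744), Myl3 (0.741) and Slc44a3 (0.725). At the other end were Kbtbd3 (-0.759), Ccr10 (-0.728), Araf and Tmem108 (-0.703 each), 2610044O15Rik8 (-0.693) and Zfp40 (-0.692). With Tnnc2 left out, r was 0.773 for Slc44a3, 0.77 for Tpm3, 0.676 for Sln and 0.641 for Myl3.

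Several members are also heart genes, so 11 cardiac genes were read beside them. Nkx2-5, a cardiac transcription factor, was at 0 in all 16 libraries, and Nppa and Gata4 were each at 0 in 11 of 16 with at most 0.815 and 0.503 CPM. The atrial light chain Myl7 reached at most 0.553 CPM and the heart myosin Myh6 at most 4.34 CPM. Others of the list were not near 0 throughout, with Myl4 at 3.18 to 7.45 CPM and Tnnt2 at 0.142 to 4.66 CPM. Tnni3 reached at most 1.525 CPM. The cardiac sum was 33.82 to 110.1 CPM and was made up largely of Ryr2, Actc1 and Nppb, and its highest library was Saline female 3. Actc1 stood at 77.1 CPM there. Ryr2 was highest in VEGFA male 6 (39.98 CPM) and Nppb in Saline female 4 (19.66 CPM). The 10 members took only 0.1204% and 0.08497% of reads in these libraries. Which cells the reads of this list came from was not tested. The cardiac sum of VEGFA females (53.72 to 89.49 CPM) lay above that of saline males (41.52 to 50.69 CPM), and the other pairs of groups overlapped. The 12 genes of developing fibres, satellite cells and the neuromuscular junction summed to 9.695 to 39.74 CPM, with Myh8 at 2.60 to 8.46, Myf6 at 0.244 to 10.2, Chrnb1 at 0.396 to 6.00 and Chrna1 at 0.731 to 6.26 CPM.

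Markers of other tissues near the ganglion also varied between libraries. The 10 adipocyte genes summed to 106.7 CPM in VEGFA male 6 and to 1429 in VEGFA female 2 and 1419 in Saline female 3. They ranged over 228.7 to 943 CPM in saline males and 298.9 to 1419 in saline females. VEGFA female 2 and Saline female 3 also had the highest slow sums (1113 and 799.4 CPM). The other females did not keep this order. Saline females 4 and 7 had adipocyte sums of 775.2 and 785.8 CPM and slow sums of 37.87 and 13.62 CPM. VEGFA females 1, 5 and 6 had lower adipocyte sums (512.1, 684.5 and 457.6 CPM) and higher slow sums (346.9, 285.9 and 422 CPM). The 11 spinal cord genes, led by the myelin gene Mobp and the astrocyte genes Gfap and Slc1a2, summed to 98.68 to 1176 CPM in saline males, 85.75 to 470.4 in VEGFA males, 42.77 to 584 in saline females and 54.98 to 1085 in VEGFA females. They were lowest in Saline female 4 and highest in Saline male 3.

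The sensory ganglion sum was lowest in VEGFA female 2 (3278 CPM), the library with the most muscle RNA. It ranged over 4757 to 6543 CPM in saline males and 5183 to 7083 CPM in saline females. The 5 blood genes, led by Hbb-bs and Hba-a1, ranged over 533.6 to 4665 CPM in all libraries, the 7 smooth muscle genes over 130.1 to 351.9 and the 10 tendon, cartilage and bone genes over 96.85 to 510.5. The ranges of the 4 groups overlapped in the blood, smooth muscle, tendon and spinal cord lists, whereas VEGFA males and females did not overlap in the adipocyte and sensory ganglion sums. The part of these tissues in the slow and fast levels was not tested.

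**Figure D5:**
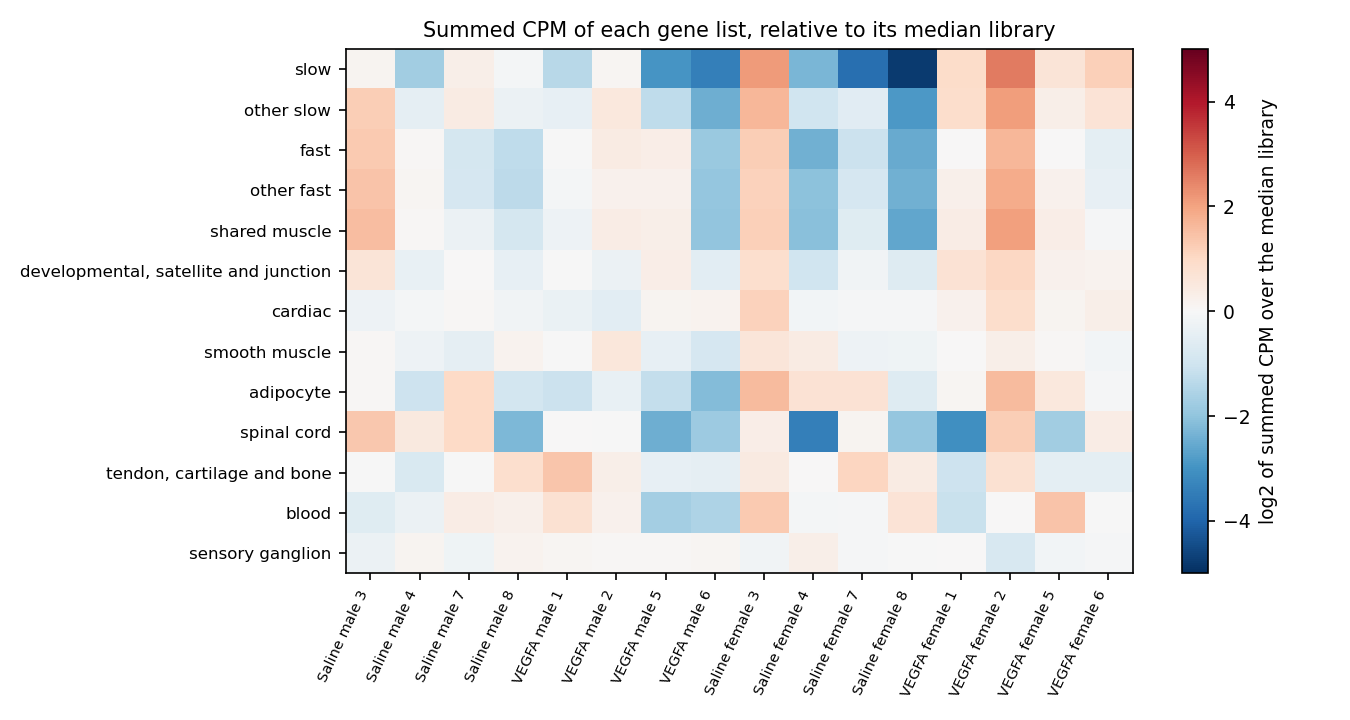
Summed CPM of each gene list in each library as log2 against the median library of that list, from blue (lower) to red (higher). The slow list runs from 6.656 CPM in Saline female 8 to 1113 CPM in VEGFA female 2, while the sensory ganglion list stays between 3278 and 7083 CPM.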

How the data were processed

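The deposited table holds counts per mega reads (CPM) per gene, as the authors computed them. The submitters' processing notes name Partek, Bowtie2, STAR, HTSeq and the build mm39, without roles or versions. Each library's values were multiples of its smallest step, which gave whole reads back (99.81 to 99.91% of nonzero values fell within 0.1 of an integer). Gene spans come from the deposited table, transcript lengths from GENCODE M21 and promoters from RefSeq. Groups follow the labelled treatment and sex. The filter was a mean of 0.5 CPM, which 18283 genes passed and 37074 did not. The model used log2(CPM + 0.5) in limma 3.58.1 under R 4.3.3, with a coefficient for each of 4 groups and a batch term over all 16 libraries, a trended eBayes step and Benjamini-Hochberg adjustment at 0.05, and was tested on simulated data. edgeR 4.0.16 and DESeq2 1.42.0 were run on the recovered reads. An item of the sensory ganglion list is not reported here and is in none of its sums. The members and lists were chosen with earlier results of these data known. The text names all members, up to 4 highest genes of each list with any defining markers near 0, and the genes most like the slow mean, the fast mean and their difference. Other settings changed the pseudocount, filter, scaling, batch term, trend or libraries.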

Additional observations from a re-analysis of the deposited data

Results flagged for a closer look

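Groups of 4 libraries were tested for 1 library far from its others (Dixon's ratio of the gap to the range above its 95% critical value). Of 56 groups tested, 14 had such a library, always the highest. All 14 were groups of CPM values of a single member. The 56 also held the slow, fast and slow minus fast means on the log scale and the Myh7 share, where no library was set apart. For normally distributed values chance gives about 1 in 20 groups, and whether CPM values are normal was not tested. The members are also not independent of each other. Saline female 3 was set apart for 9 members, with Myh7 at 71.9 CPM (others at most 1.006), Tnnc1 at 126, Tnni1 at 90.67, Tnnt1 at 249.8, Myl2 at 261, Myh4 at 4351, Tnni2 at 1281 and Tnnt3 at 3605 CPM. The ninth, Tnnc2, was at 0.07773 CPM against 0 in the other saline females, which is 2 reads. VEGFA female 2 was set apart for Myh7 at 210.7, Myl2 at 366.5, Myh4 at 6575 and Tnnt3 at 4059 CPM. Saline male 3 was set apart for Myh1 at 1433 CPM.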

How the results depend on the processing

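Pseudocounts of 0.1 and 1 CPM, median-of-ratios or TMM scaling and a fast mean without Tnnc2 reversed no value. The filter, the eBayes trend and, with balanced batches, the batch term cannot change a fitted difference, so these settings could not reverse one. They could change only the counts of members called, which stayed at 0 with no filter, a minimum mean of 2 CPM, no batch term or no trend. In batch 1 alone the male differences were 0.24 for Myh7, 0.33 for Tnnt1, 0.27 for Myl2, -1.03 for Myh1, 0.041 for the slow mean and 0.60 for slow minus fast (with Tnnc2 among the fast genes, as in all values here), with 0.65 for slow minus fast in females. In batch 2 alone they were 0.20 for Myh4, 0.095 for Tnni2, 0.17 for Tnnt3, -3.07 for the slow mean and -3.45 for slow minus fast, with 3.31 for slow minus fast in females. Members called in batch 2 alone were 4 in males, 5 in females, 5 for the female minus male difference and 4 in each comparison of the sexes. The male differences of Tnni2 and Tnnt3 were 0.027 and 0.10 in edgeR and 0.042 and 0.11 in DESeq2. Larger differences moved too, in edgeR and DESeq2 to 3.00 and 3.07 for Myh7, 2.10 and 2.15 for Tnnc1, 2.06 and 2.10 for Tnnt1 and 1.57 and 1.56 for Myh1 in females, and to -2.24 and -2.27 for Myh7 in males. The cause of these changes was not tested.

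With 1 library left out, 0 to 4 members were called in females, 0 to 4 for the female minus male difference and 0 to 3 between the sexes in VEGFA animals, each above 0 only without Saline female 3. The male differences ran from -0.68 to 0.043 for Myh4, -0.64 to 0.75 for Myh1, -0.50 to 0.29 for Tnni2 and -0.39 to 0.36 for Tnnt3. In females they ran from 0.68 to 2.22 for Myh4, 1.56 to 3.60 for Myh1, 0.72 to 1.90 for Tnni2 and 0.75 to 1.95 for Tnnt3. Without Saline male 4 or Saline male 7 the male differences were -2.25 and -0.94 for Tnnt1 and -2.57 and -1.06 for Myl2. The slow mean ran from -2.24 (without Saline male 4) to -0.99 (without Saline male 7) in males and from 2.90 to 4.69 in females. With the replicate block, 0 members were called in either comparison of the sexes. Genes called with it were 8 in saline and 12 in VEGFA animals, against 9 and 8 without it. Deviations of same-numbered libraries correlated at r = 0.0948 to 0.375, and 11 of 16 libraries correlated best with their own number. Only the group mean was removed and same-numbered libraries share a batch, so these values cannot separate pairing from batch. The numbers were not taken as pairs because the labels do not say that they mark pairs and the VEGFA libraries numbered 1 did not reach 0.1. No paired analysis was possible for VEGFA against saline because these groups share no numbers. Tnnc2 had at most 2 reads in 10 of 16 libraries, too few for a difference, and why its counts were low was not tested.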
